A study of Mus musculus with 4 samples.

Results

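The axoneme and sperm flagellum gene families were taken as all genes of the deposited table whose symbols begin with Dnah, Dnaic, Dnal, Rsph, Tekt, Odf or Spag. The rule uses names only, and it took 46 of 23980 genes. They encode dynein heavy chains of the outer arm (5 genes) and of the inner arm (6), dynein intermediate and light chains (5), radial spoke proteins (6), tektins (5), outer dense fibre (Odf) proteins and relatives (8), Spag proteins of the central apparatus (3) and other sperm-associated antigens (8).

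RNA was measured by polyA(+) RNA-seq in leptotene/zygotene (L/Z) spermatocytes, germ cells at the start of meiosis, which had been purified by FACS from mice of 3 to 4 weeks. All animals were F1 hybrids of C57BL/6J and MSM/Ms. One library each came from a Dnmt3L heterozygote, a Pld6 WT, a Pld6 KO and a Dnmt3L KO. The Dnmt3L heterozygote carries 1 mutant allele of Dnmt3l, and with the Pld6 WT library it formed the controls here. Pld6 encodes a nuclease of piRNA production, and Dnmt3l a cofactor of the enzymes that set DNA methylation in male germ cells. Germ cells of both knockouts die late in the zygotene stage, so the mutant testes hold no later germ cells, whereas the control testes do. Each mutant value comes from 1 library and has no replicate check.

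The axoneme is the microtubule shaft of cilia and of the sperm tail. Its outer doublets carry rows of dynein arms that slide one doublet along the next, and radial spokes pass signals to the arms from a central pair of microtubules and its attached proteins. Tektins are filaments within the doublet walls, and outer dense fibres, found only in the sperm tail, stiffen it. In the mouse testis many of these genes are first transcribed in meiotic spermatocytes and the tail itself is built in spermatids.

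The libraries held 30439943 to 63875934 fragments in genes. The targeted genes were lowest in the libraries of their own knockouts, with Pld6 at 0.334 FPKM in the Pld6 KO against 8.55 to 19.5 elsewhere, and Dnmt3l at 0 in the Dnmt3L KO against 0.432 to 1.27 elsewhere. FPKM is the number of fragments scaled to gene length and library depth, and all levels below are in this unit. Markers of L/Z spermatocytes were present in every library (18 genes, 0 of them at 0), with medians of 64.8 and 166 FPKM in the controls (Dnmt3L heterozygote, Pld6 WT) and 108 and 65.9 FPKM in the mutants (Pld6 KO, Dnmt3L KO).

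The families were well expressed in both controls and much lower in both mutants. Their summed level was 1682 FPKM (Dnmt3L heterozygote) and 951 FPKM (Pld6 WT) in the controls and 287 FPKM (Pld6 KO) and 378 FPKM (Dnmt3L KO) in the mutants. They held 0.302% and 0.229% of the fragments of the controls and 0.0944% and 0.0968% of those of the mutants, in the same order. The median member stood at 11.7 and 9.46 FPKM in the controls and at 0.654 and 0.680 FPKM in the mutants. Of the 46 genes, 39 reached 1 FPKM in each control, 21 in the Pld6 KO and 22 in the Dnmt3L KO. Odf3l2, Spag11a and Spag11b had 0 fragments in all 4 libraries.

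**Figure D1:**
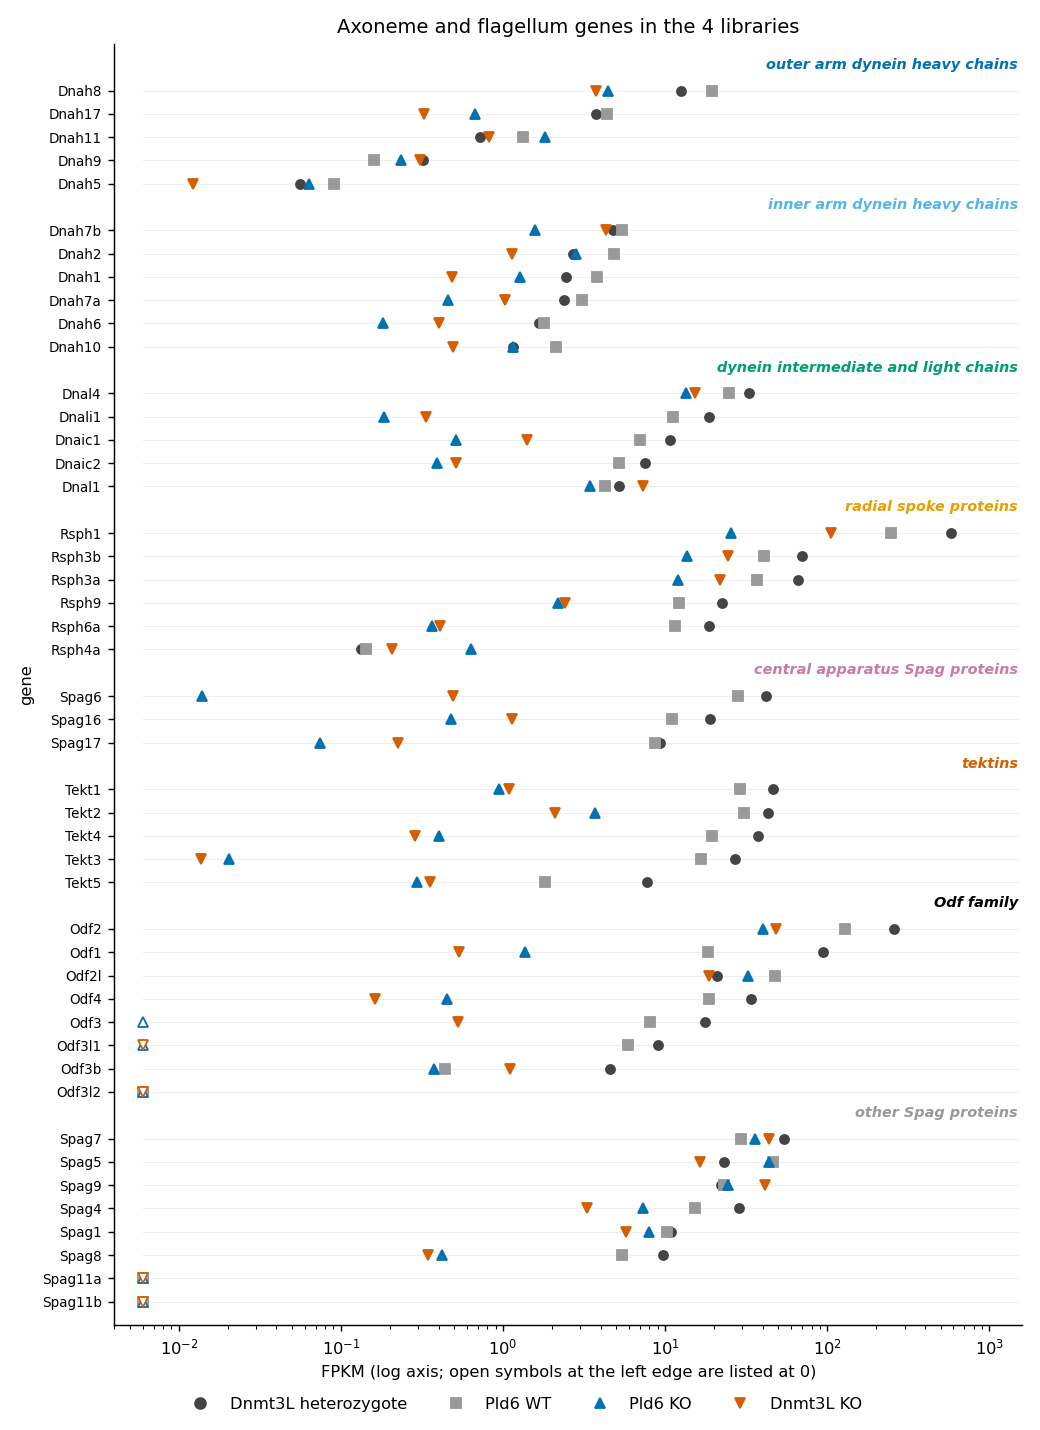
FPKM (log axis) of the 46 genes in each of the 4 libraries, grouped by role and ordered within a role by mean control level. Each symbol is 1 library, and open symbols at the left edge are values of 0. Both mutants lie far left of both controls for the tektins and the central apparatus genes, and close to them for Spag7, Spag9 and Dnah11.

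A gene was called lower in a mutant when its FPKM + 1 lay more than 2-fold below that of both controls, which only genes over 1 FPKM in both controls (38 of the 46) can meet. In the Pld6 KO 27 of the 46 genes were lower, where 5.41% of all genes were, and 9.96% of the 13018 genes over 1 FPKM in both controls. In the Dnmt3L KO 24 were lower (5.78% of all genes, 10.6% of those 13018). None was higher by the same rule, which called 1.04% of all genes higher in the Pld6 KO and 2.14% in the Dnmt3L KO. The median change was -1.62 in the Pld6 KO and -1.66 in the Dnmt3L KO, as log2((FPKM + 1)/(mean control FPKM + 1)), a scale that understates the change of weakly expressed genes. Over all genes both medians were 0.00, with genes without fragments counted as unchanged. Where the control mean was above 0, the median level left over all genes was 90.7% (Pld6 KO) and 92.8% (Dnmt3L KO) of it. For the members it was 16.7% and 16.8%. In such bulk samples fewer cells that express a gene and less RNA per cell cannot be told apart.

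Without a fold limit, both mutants lay below both controls for 31 of the 46 genes (17.9% of all genes) and above both for 2, Rsph4a and Spag9 (11.5%).

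The mutants largely shared these genes. The same 22 genes were lower in both, against 4.61% of all genes, and both contrasts use the same controls. Set against the control of its own line instead, so that no library is shared, 40 of the 43 genes with fragments differed in the same direction in both mutants, small differences included, as did 61.1% of the 20595 genes with fragments, and 25 were more than 2-fold lower in both (5.9% of those genes). The medians were -1.497 (Pld6 KO) and -1.54 (Dnmt3L KO). By edgeR's quasi-likelihood test, in which the single mutant library is assumed to vary as the 2 controls do, 0 of the 43 genes tested passed an adjusted p of 0.05 (Benjamini-Hochberg) in either mutant, as did 0 of 18657 genes in all. The smallest adjusted p of a member was 0.102 in the Pld6 KO and 0.0967 in the Dnmt3L KO. At an unadjusted p under 0.05 the same test gave 27 members lower and 0 higher in the Pld6 KO (7.41% and 0.547% of all genes tested) and 24 lower and 0 higher in the Dnmt3L KO (7.72% and 1.09%). DESeq2 on the same design called 22 and 19 members lower at an adjusted p of 0.05 (4.65% and 4.47% of its tested genes), and edgeR without a filter on low counts called 10 and 9 lower (1.61% and 1.57%). A further edgeR fit, added after the data had been seen, took line as a block and 1 effect for both mutants, which leaves 1 residual degree of freedom. It called 28 of the 43 members lower at an adjusted p of 0.05 and 0 higher, against 6.32% and 0.959% of all genes tested. The call included all 22 genes lower in both mutants, with Tekt3 at the smallest adjusted p of a member (9.64e-05), and left out Dnah2, Dnah7b, Dnah10, Dnal4 and others. This fit assumes that the mutants change a gene alike, and it tests no difference between them. Its p-values are set against the disagreement of the lines on that effect, not against the spread between the controls.

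**Figure D2:**
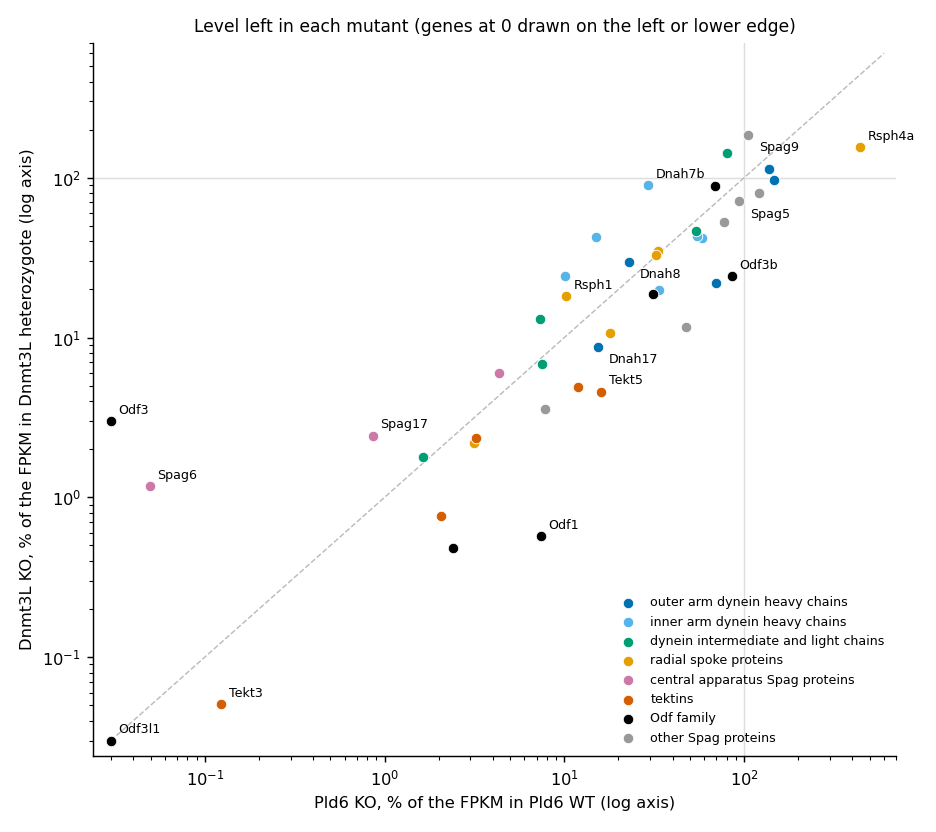
Level left in the Pld6 KO as a percent of the Pld6 WT (horizontal, log axis) against the level left in the Dnmt3L KO as a percent of the Dnmt3L heterozygote (vertical, log axis), 1 point per gene with fragments, coloured by role. The dashed line marks equal percents, and tektins and central apparatus genes lie at the lower left while several dynein heavy chains and other Spag genes lie at the upper right.

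The genes did not change alike. As a share of the lower control, 13 of the 43 genes with fragments kept under 10% of their level in both mutants (30.2%, against 7.31% of the 18333 genes with fragments in both controls), 11 kept over 50% in both (25.6%, against 78.3%), and 19 lay between or differed between the mutants. These limits were chosen after the values had been seen. The genes under 10% were Dnaic2, Dnali1, Odf1, Odf3, Odf3l1, Odf4, Rsph6a, Spag6, Spag8, Spag17, Tekt1, Tekt3 and Tekt4. Those over 50% were Dnah9, Dnah11, Dnal1, Dnal4, Odf2l, Odf3b, Rsph4a, Spag1, Spag5, Spag7 and Spag9. No dynein heavy chain was among the first 13.

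Among outer arm heavy chains, the motors that set beat frequency, the sperm paralogues had higher levels in the controls than the cilia paralogues. Dnah8 (chr17:30626935-30875762), the sperm-tail counterpart of Dnah5, was at 12.5 FPKM in the heterozygote, 19.5 in the Pld6 WT, 4.46 in the Pld6 KO and 3.72 in the Dnmt3L KO. Dnah17 (chr11:118021723-118130719), the sperm-tail counterpart of Dnah9 and Dnah11, was at 3.73, 4.37, 0.676 and 0.326 FPKM in that order of libraries, which is used from here on. Both mutants lay below both controls for these motors, by 2.81-fold and 3.36-fold (Pld6 KO, Dnmt3L KO) from the lower control for Dnah8 and by 5.52-fold and 11.4-fold for Dnah17. The paralogues known from motile cilia were weakly expressed in all 4 libraries. Dnah5 had 0.0559, 0.0908, 0.0634 and 0.0123 FPKM. Dnah9 had 0.320, 0.159, 0.235 and 0.308 FPKM. Dnah11 had 0.724, 1.32, 1.82 and 0.823 FPKM. For Dnah9 the mutants lay within the range of the controls, and for Dnah11 the Pld6 KO library was the highest of the 4. For Dnah5 the Dnmt3L KO library was the lowest, 4.54-fold below the lower control but with only 9 fragments.

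Inner arm heavy chains, which shape the bend of the tail, were all weakly expressed per length, between 1.15 and 5.40 FPKM in the controls. By the rule on FPKM + 1, Dnah1 was called lower in the Dnmt3L KO and Dnah6, Dnah7a and Dnah7b in the Pld6 KO. With 0.1 in place of 1, Dnah2, Dnah6, Dnah7a and Dnah10 were also called in the Dnmt3L KO, and the mutants were not tested against each other. Dnah1, the heavy chain with the lowest Dnmt3L KO level relative to the controls of this role, was at 2.46, 3.82, 1.28 and 0.486 FPKM. Dnah7a was at 2.39, 3.05, 0.457 and 1.02 FPKM, which put the Pld6 KO 5.23-fold and the Dnmt3L KO 2.34-fold below the lower control. Dnah7b, the most abundant, was at 4.76, 5.40, 1.58 and 4.29 FPKM, so that only the Pld6 KO library stood apart. Dnah7a and Dnah7b share 40.3% and 48.4% of their 50-base stretches with other genes, so the fragments given to each are uncertain. In the least abundant gene, Dnah10, the levels were 1.15, 2.12, 1.15 and 0.492 FPKM, so the Pld6 KO was level with the lower control. Dnah6 had 1.66, 1.80, 0.182 and 0.405 FPKM, 9.10-fold and 4.10-fold below the lower control, and Dnah2 had 2.70, 4.84, 2.84 and 1.14.

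Among the smaller dynein subunits 3 were far lower in both mutants and both light chains were retained. Dnaic1 and Dnaic2 encode the intermediate chains that anchor the outer arm to the doublet. Dnaic1 was at 10.8, 6.95, 0.510 and 1.41 FPKM, and Dnaic2 at 7.52, 5.21, 0.390 and 0.514. Dnali1, a light intermediate chain of the inner arm, was at 18.7, 11.2, 0.184 and 0.336 FPKM, 61.0-fold and 33.4-fold below the lower control. In all of these the mutants lay far outside the range of the controls. The light chains Dnal1 (5.16, 4.28, 3.44 and 7.34 FPKM) and Dnal4 (32.9, 24.8, 13.4 and 15.3 FPKM) were called in neither mutant, although both mutants lay below both controls for Dnal4. Dnal1 was highest in the Dnmt3L KO library.

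Radial spoke genes included the most abundant member of all. Rsph1 (chr17:31255019-31277296), a protein of the spoke head, was at 581, 247, 25.3 and 105.5 FPKM, 9.75-fold and 2.34-fold below the lower control. The Dnmt3L KO library held 2.02 more on the log2(FPKM + 1) scale than the Pld6 KO, the widest gap between the mutants in the families. Between the mutants, 2 members differed by more than 2-fold in FPKM + 1 towards the Dnmt3L KO (Rsph1 and Dnah7b), as did 9.43% of all genes, and 1 towards the Pld6 KO (Spag5, against 4.28%). In FPKM without the added 1 further members with low levels differed by more than 2-fold, Spag6 and Dnah1 among them. Rsph6a, the spoke-head protein of sperm, was at 18.7, 11.6, 0.363 and 0.410 FPKM. Its counterpart of motile cilia, Rsph4a, was at 0.134, 0.142, 0.631 and 0.208 FPKM, and both mutants lay above both controls, with 69 fragments in the Pld6 KO and 30 or fewer in each control. Rsph9, another head protein, was at 22.3, 12.1, 2.17 and 2.40 FPKM. Rsph3a and Rsph3b of the spoke stalk were called lower in the Pld6 KO and not in the Dnmt3L KO (12.02 and 13.6 FPKM, with 37.1 to 69.6 in the controls and 21.7 and 24.3 in the Dnmt3L KO), and they share 74.0% and 75.8% of their 50-base stretches with other genes, so their separate levels are uncertain.

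All 3 Spag genes of the central apparatus were lower in both mutants, by 9.64-fold or more from the lower control. Spag6 was at 42.0, 28.1, 0.0139 and 0.494 FPKM, and its 1 fragment in the Pld6 KO set it 2017-fold below the Pld6 WT, the lower control (95% exact counting interval 362 to 79710). The symbol Spag6 matches more than 1 locus in the annotation, so no position is given. Spag16 was at 19.0, 10.96, 0.475 and 1.14 FPKM. Spag17 was at 9.28, 8.63, 0.0741 and 0.226 FPKM, so the controls were close to each other and both mutants were 38.2-fold or more below them. Exons of genes on the opposite strand overlap 15.7% of the Spag17 exons, and the strand setting of the counting is not given in the sources used here.

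All 5 tektins were lower in both mutants. Tekt3 (chr11:63061659-63094960) was at 26.9, 16.6, 0.0205 and 0.0137 FPKM. It had 2686 and 1038 fragments in the controls and 1 fragment in each mutant, a ratio of 808 for the Pld6 KO (95% exact counting interval 145 to 31951) and of 1208 for the Dnmt3L KO (216 to 47771) against the lower control. Such intervals cover counting error only. Tekt1 was at 46.1, 29.1, 0.941 and 1.08 FPKM and Tekt4 at 37.3, 19.5, 0.403 and 0.285. Tekt2, at 42.9, 30.9, 3.69 and 2.09 FPKM, kept the most in absolute terms, and 20.8% of its exon bases are overlapped by a gene on the opposite strand. Tekt5 differed most between the controls, with 7.70, 1.83, 0.294 and 0.353 FPKM. In every tektin the higher mutant lay below the lower control.

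Outer dense fibre genes varied widely in the level left in the mutants. Odf1, a main protein of the fibres, was at 93.5, 18.3, 1.36 and 0.537 FPKM and changed by -5.21 in the Dnmt3L KO on the log2(FPKM + 1) scale, 34.1-fold below the lower control. Odf4 was at 33.8, 18.7, 0.452 and 0.163 FPKM. Odf3 was at 17.5 and 8.10 FPKM in the controls, 0 in the Pld6 KO and 0.526 in the Dnmt3L KO, and Odf3l1 at 9.05, 5.87, 0 and 0. With 3 fragments as the most that a count of 0 allows per library, Odf3 was at least 61.8-fold lower in the Pld6 KO than in the lower control, and Odf3l1 at least 54.5-fold lower in the Pld6 KO and at least 81.5-fold lower in the Dnmt3L KO. Odf2, which also serves at the centrosome of other cells, was second only to Rsph1 in level in the controls and was retained in part (258, 128.5, 40.0 and 48.3 FPKM). Its relative Odf2l, of the centriole, was at 20.9, 47.7, 32.7 and 18.7 FPKM, with the Pld6 KO between the controls. Odf3b was at 4.60, 0.440, 0.376 and 1.11 FPKM, and its 10.5-fold gap between the controls was wider than any gap to a mutant from the lower control.

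Of the other Spag genes, Spag1, Spag5, Spag7 and Spag9 kept over 50% of the lower control in both mutants. Spag5, a protein of the mitotic spindle, was at 23.1, 46.5, 43.5 and 16.4 FPKM. Spag9, a scaffold of kinase signalling, was at 22.1, 23.2, 24.4 and 41.1 FPKM and Spag7 at 53.9, 29.4, 35.7 and 43.4. For Spag5 and Spag7 at least 1 mutant lay between the controls, and for Spag9 both mutants lay above both controls, the Dnmt3L KO by 0.83 on the log2 scale. Spag1, an assembly factor of dynein arms, was at 10.9, 10.3, 7.91 and 5.77 FPKM. Spag8, a microtubule-associated protein of the tail, was lower in both mutants (9.65, 5.40, 0.420 and 0.343 FPKM), and Spag4, a nuclear envelope protein of spermatids, was at 28.4, 15.3, 7.30 and 3.29 FPKM, called in the Dnmt3L KO and just short of the limit in the Pld6 KO, 2.09-fold below the lower control before 1 is added.

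Promoter sequence was compared between members grouped by the level they kept in the mutants, with limits chosen after the values had been seen. RefSeq windows of 300 bases (250 before the start and 50 after, GRCm38.p6) were found for 38 members, 47 windows in all. The X-box is the element bound by RFX factors, regulators of cilia and sperm-tail genes. The core here means a single arm of that element, GTTGCC on one strand and GGCAAC on the other. This core stood in 14 of the 47 windows (29.8%), against 12.5% of all 32851 windows. By level left, it stood in 7 of the 13 windows of the genes under 10% in both mutants (53.8%), in 0 of the 11 windows of those over 50% and in 7 of the other 23 (30.4%). Counted by gene, since some genes have more than 1 window, these were 6 of 11, 0 of 9 and 6 of 18. The whole X-box, searched on both strands and able to overlap the core, was in 2 of 13, 4 of 11 and 6 of 23 windows, and in 25.5% of member windows against 3.68% of all. The core sequence of MYB sites (TAACNG, both strands) was in 42.6% of member windows and 23.3% of all, and the cAMP response element (TGACGTCA) in 4.26% and 1.79%. Such matches describe letters only, and windows of 1 gene share sequence.

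The 6 genes under 10% in both mutants whose windows hold the core are shown, each over 30 bases 5' to 3' on the strand of the gene, with the core in capitals. Odf3l1 and Tekt1 each hold a further match to the core that is not shown. Their places in GRCm38.p6 are chr11:114727381-114727410 on the plus strand for Dnaic2, chr7:140847839-140847868 (plus) for Odf3, chr9:56852049-56852078 (minus) for Odf3l1, chr4:43653550-43653579 (minus) for Spag8, chr11:72361900-72361929 (minus) for Tekt1 and chr17:25471586-25471615 (plus) for Tekt4. The core begins 26 bases before the start in Dnaic2, 65 before it in Odf3 and 35 before it in Tekt1, and lies after the start in Spag8 and Tekt4.
Dnaic2: ccagggttgctaGGCAACtggtaaactccg
Odf3: cctttttagggaGTTGCCtggcacagacac
Odf3l1: ttcaggcaccacGGCAACgggagaaataaa
Spag8: tgccgtctctatGGCAACccgggaggtgga
Tekt1: tcttctaactagGGCAACgttgcgtccgtc
Tekt4: caatgttccttaGGCAACcaggaaccttgc

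**Figure D3:**
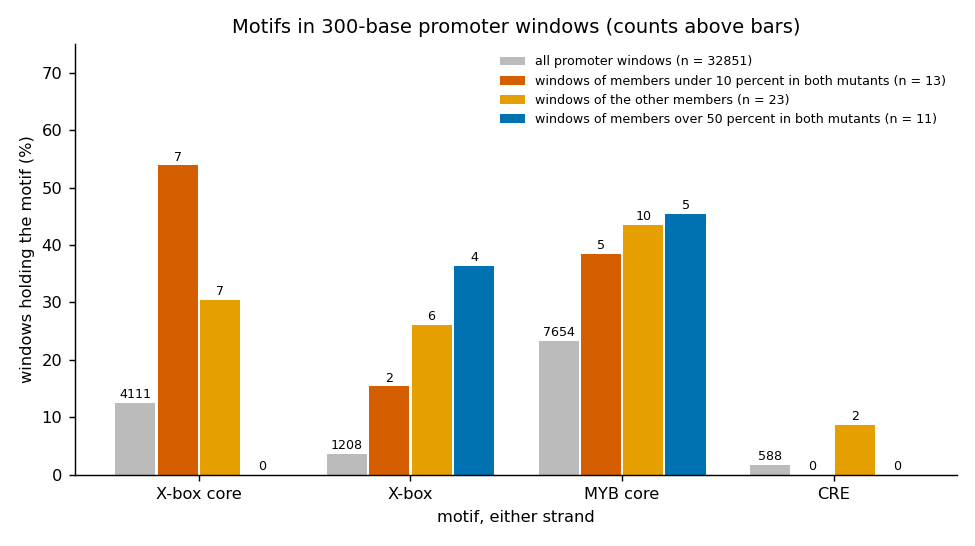
Percent of 300-base promoter windows that hold each motif on either strand, for all genes and for the members by the level they kept in the mutants, with the number of windows above each bar. The core, a single arm of the X-box, is in 53.8% of the windows of genes under 10% in both mutants and in none of the 11 windows of genes over 50%. The whole X-box is in 15.4% and 36.4%.

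Other genes of the flagellum were taken from lists by structure, and the lists were not tested against each other. Of all genes, 5.41% (Pld6 KO) and 5.78% (Dnmt3L KO) were called lower. Of the genes over 1 FPKM in both controls, 9.96% and 10.6% were. Fibrous sheath genes, which surround the fibres of the principal piece, were called lower in 8 (Pld6 KO) and 9 (Dnmt3L KO) of 9, and Ropn1, a sheath protein, was at 61.7, 20.2, 0 and 0 FPKM. The nexin-dynein regulatory complex, which links neighbouring doublets, had 7 of 9 genes lower in each mutant, with Ccdc65 at 30.6, 19.1, 0.433 and 2.01 FPKM and Iqcg at 15.8, 13.6, 10.4 and 13.9. Microtubule inner and doublet proteins had 8 and 9 of 13 lower, and Meig1, needed to build the tail in spermatids, was at 616, 231, 6.01 and 43.4 FPKM. Dynein assembly and docking factors had 12 and 11 of 17 lower. Their extremes were Zmynd10 (42.1, 23.3, 0.203 and 0.367 FPKM) and Heatr2 (13.9, 19.4, 22.2 and 15.7 FPKM). Central apparatus genes outside the Spag family had 3 of 6 lower in each mutant, with Hydin at 1.51, 1.86, 1.06 and 0.669 FPKM.

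Intraflagellar transport genes, whose products carry parts into growing cilia of all kinds, were called in neither mutant (0 of 17 each). All 17 were over 1 FPKM in both controls. Of all such genes only 9.96% (Pld6 KO) and 10.6% (Dnmt3L KO) were called lower, so the count alone does not set this list apart. The median level of the list was 67.0% of the control mean in the Pld6 KO and 75.9% in the Dnmt3L KO. Without a fold limit 12 of the 17 lay below both controls in both mutants, where 17.9% of all genes did, so their levels were lower by less than 2-fold. Among them Kif3a was at 19.3, 24.8, 27.4 and 21.0 FPKM, with the Pld6 KO above both controls and the Dnmt3L KO between them. Of 12 regulators of ciliary and spermatid genes 4 were lower in the Pld6 KO and 6 in the Dnmt3L KO. Rfx2, which drives tail genes in spermatocytes and spermatids, was at 22.4, 20.5, 7.23 and 3.67 FPKM. Rfx4 was at 3.20, 3.00, 0 and 0, whereas Rfx3 was at 1.80, 3.43, 3.92 and 2.82. No gene of these 7 lists was higher in either mutant, but few of all genes were (1.04% in the Pld6 KO, 2.14% in the Dnmt3L KO).

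Most markers of later germ cells moved with the families. The 16 markers of pachytene spermatocytes had medians of 51.9, 41.5, 1.71 and 1.46 FPKM, 14 of 16 were lower in each mutant, and their summed level was 1674, 1114, 273 and 168 FPKM. The 20 spermatid markers had medians of 29.1, 12.6, 0.535 and 0.392 FPKM, with 18 (Pld6 KO) and 17 (Dnmt3L KO) lower, 5 at 0 in each mutant and 0 at 0 in the controls. Those at 0 were Acr, Acrv1, Catsper1, Lyzl4 and Spaca4 in the Pld6 KO and Catsper1, Gsg1, Hils1, Lyzl4 and Spaca4 in the Dnmt3L KO. The summed level of the 20 was 7337, 288, 57.5 and 57.2 FPKM, and Prm1, which packs sperm DNA, was at 2372, 16.3, 2.87 and 1.81. Ldhc, a lactate dehydrogenase of pachytene and later germ cells, was at 623, 304, 1.91 and 2.80 FPKM, and of the pachytene markers only Nme8 was at 0, in the Dnmt3L KO. The pachytene markers Mov10l1 (54.6, 103.8, 112.9 and 52.3 FPKM) and Tbpl1 (49.1, 43.5, 21.5 and 21.5) were called in neither mutant. Nor were the spermatid markers Hook1 (31.2, 57.1, 43.8 and 27.2) and Tssk6 (21.1, 1.94, 0.859 and 0.957). Spaca1 (21.7, 21.7, 3.15 and 15.3) was called in the Pld6 KO only. L/Z markers had 0 and 2 of 18 lower, near the 9.96% and 10.6% of all genes over 1 FPKM in both controls. The part of pachytene spermatocytes and spermatids in the levels of the flagellum genes was not tested. Markers of multiciliated duct cells had medians of 0.136, 0.0799, 0.0508 and 0.276 FPKM, with none of 11 called in either mutant. Only 2 of the 11 were over 1 FPKM in both controls, so the others could not have been called lower.

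**Figure D4:**
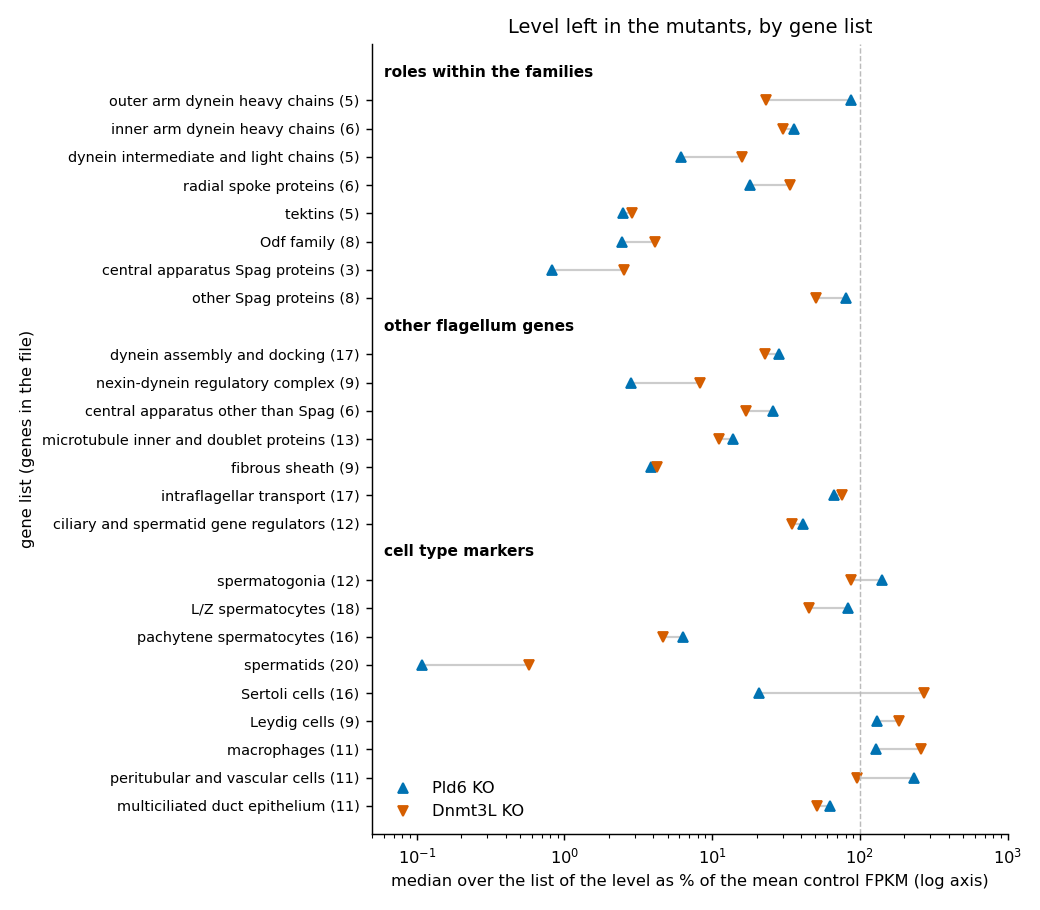
Median over each list of the level in a mutant as a percent of the mean control level (log axis), for the roles within the families, other flagellum lists and cell type markers, with the number of genes in the file in parentheses. The line joins the Pld6 KO and the Dnmt3L KO. On this measure tektins (2.50% and 2.88%) lie between spermatid markers (0.109% and 0.574%) and pachytene markers (6.34% and 4.65%), and intraflagellar transport genes at 67.0% and 75.9%. The order depends on the measure. Against the control of the same line, as log2 of FPKM + 1, the Pld6 KO medians were -3.87 (tektins), -2.53 (spermatid) and -2.57 (pachytene). Those of the Dnmt3L KO were -4.50, -4.11 and -3.88.

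The controls themselves differed, in these genes and across all genes. Of the 43 genes with fragments, 29 were higher in the heterozygote and 14 in the other control, a split not counted over all genes. The median difference of all 46 was 0.46 on the log2(FPKM + 1) scale, against 0 over all genes, those without fragments included. Those more than 2-fold higher in the heterozygote numbered 6 (Odf1, Odf2, Odf3, Odf3b, Rsph1 and Tekt5), where 11.1% of all genes were, and 1 (Odf2l) was more than 2-fold higher in the Pld6 WT, where 3.77% were. These counts were near the shares over all genes. Odf1 was 5.11-fold and Tekt5 4.22-fold higher in the heterozygote. All inner arm heavy chains were lower there, as were all outer arm heavy chains except Dnah9. Beside this, the spermatid markers were higher in the heterozygote by a median of 1.40 and the pachytene markers by 0.50, and the L/Z markers had a median difference of -1.0. Sertoli cell markers had medians of 58.7, 3.55, 12.7 and 88.7 FPKM, with all 16 more than 2-fold higher in the heterozygote than in the Pld6 WT. Leydig cell markers had medians of 37.6, 1.39, 17.6 and 28.5 FPKM. The part of other cells in the difference between the controls was not tested.

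**Figure D5:**
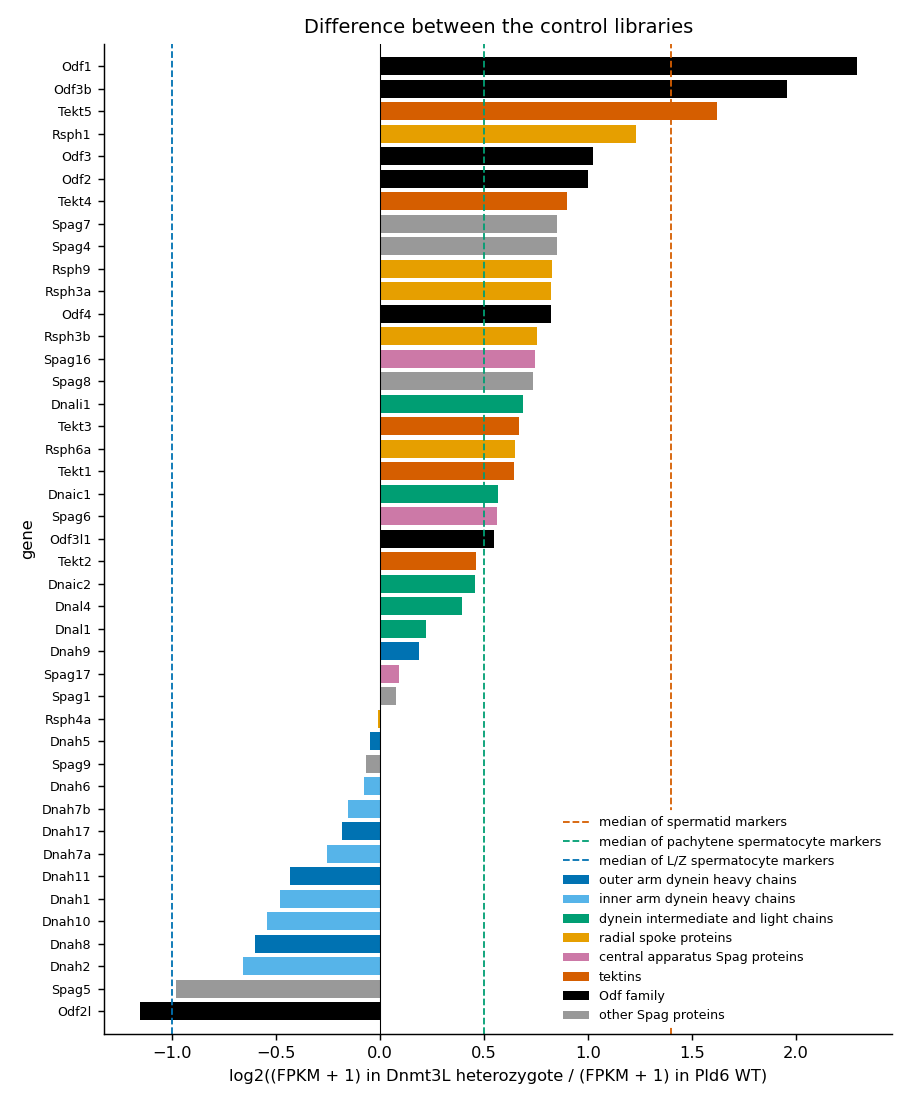
Difference between the control libraries for the 43 genes with fragments, as the log2 ratio of FPKM + 1 (heterozygote over Pld6 WT), coloured by role, with dashed lines at the medians of 3 marker lists. Odf1, Odf3b and Tekt5 lie at or beyond the spermatid median of 1.40, and the dynein heavy chains lie mostly below 0, towards the L/Z median of -1.0.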

How the data were processed

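The libraries were made with a stranded TruSeq kit and sequenced by the authors from 1 end (50 bp). The deposited table gives FPKM and estimated counts (raw fragments before scaling) from TopHat and Cuffdiff, and the build mm10 per the labels; versions and the strand setting are not given in the sources used here. Of the deposited estimated counts, 98.1% to 98.5% per library were whole within 0.01. Other columns were not used.

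Members were found by symbol. They, the lists and the tests were chosen with earlier results of these data known. Every member could be named. Roles of 5 or fewer genes were given in full and others by their extremes and paralogues. Changes used FPKM + 1. Estimated counts were rounded and tested with edgeR 4.0.16 (TMM, filterByExpr, quasi-likelihood, 3 groups, 1 residual degree of freedom, from the controls, whose genotype, line and sorting differ) and DESeq2 1.42.0. The edgeR script was tested on simulated data. Nothing in the labels says whether libraries hold 1 animal or several, so p-values of the 3-group fits measure only the spread between the control libraries. Those of the fit with line as a block are set against the disagreement of the lines on the mutant effect. Reads carried no molecular identifiers, so floors (3 fragments) and intervals cover counting error only. The fragment totals are larger than the read numbers that the study's methods give for such libraries, which was not resolved and bears on what 1 fragment stands for. Positions came from RefSeq of GRCm38.p6, which has mm10 coordinates, for 45 of 46 genes. Shared 50-base stretches and exon overlap used GENCODE M21. Dnah3, Dnah7c, Dnah12, Dnah14, Rsph10b and Rsph14 were not analysed here.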

Additional observations from a re-analysis of the deposited data

Results flagged for a closer look

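For 3 members the difference from the control of the same line had opposite signs in the mutants, on the log2(FPKM + 1) scale. Dnah9 changed by 0.0910 in the Pld6 line and by -0.0135 in the Dnmt3L line. Dnal1 changed by -0.25 in the Pld6 line and by 0.44 in the Dnmt3L line. Spag7 changed by 0.27 in the Pld6 line and by -0.31 in the Dnmt3L line. These differences between lines were not tested, since each genotype has 1 library, and each of these values is smaller than 2-fold.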

How the results depend on the processing

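None of the summary values reversed under an alternative. With a pseudocount of 0.1 FPKM the medians were -2.30 (Pld6 KO) and -1.98 (Dnmt3L KO) and 1 member (Rsph4a) was higher in the Pld6 KO. TMM-scaled CPM gave -2.06 and -1.95 and 1 member higher in the Pld6 KO, and only genes of mean FPKM of at least 1 (40) gave -2.09 and -1.97. Without genes that have near-identical copies (39 left) the Dnmt3L KO median was -1.96. With 1 control left out the medians ranged from -1.92 to -1.497 (Pld6 KO) and from -1.54 to -1.42 (Dnmt3L KO), and the members lower from 28 to 30 and from 28 to 29. A limit of 3-fold left 19 lower in each mutant. Members past an adjusted p of 0.05, 0 with edgeR, were 10 (Pld6 KO) and 9 (Dnmt3L KO) without the filter on low counts and 22 and 19 with DESeq2, and 0 with DESeq2 size factors in edgeR. The cause of these shifts was not tested. Of 86 changes of single members (43 genes in each mutant), the sign turned for 4 without the Dnmt3L heterozygote and for 7 without the Pld6 WT. With line as a block and 1 effect for both mutants, chosen after seeing the data, edgeR called 28 members. No paired test of each mutant on its own was possible. The labels give no replicate numbers, and line as a term beside a separate effect for each mutant leaves 0 residual degrees of freedom. A fit of edgeR without 1 control has none either and was not run.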
